A study of Homo sapiens with 16 samples.

Results

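The 106 genes described here are those whose names begin with the prefixes of the respiratory chain complexes and of ATP synthase, found by matching the Ensembl identifiers of both deposited tables to protein-coding symbols of GENCODE 29 on GRCh38. They stand among 26410 genes in all. The prefixes were NDUFA, NDUFB, NDUFC, NDUFS, NDUFV, SDHA to SDHD, UQCR, COX4 to COX8, ATP5, MT-ND, MT-CO, MT-CYB and MT-ATP. Of the 106 genes, 94 encode structural subunits, 81 of them in the nucleus and 13 on the mitochondrial chromosome. The label of oxidative phosphorylation subunits did not hold for the remaining members, which were 8 assembly factors of complex I (the NDUFAF genes), 3 further genes (ATP5IF1, an inhibitor of ATP synthase, COX7A2L, a factor of respiratory supercomplexes, and ATP5S, now named DMAC2L) and ATP5MF-PTCD1, a readthrough gene. These were kept apart from the complexes. A further 6 genes that meet the rule were not analysed here, since the tables used have no row for them: COX6A2, COX7A1, COX7B2, COX8C, NDUFA6 and NDUFC2-KCTD14.

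RNA was sequenced from SH-SY5Y, a human neuroblastoma cell line, after poly(A) selection. Cells labelled TRPM2 KO had received Cas9 with a guide to TRPM2, a calcium-permeable channel gene, and Scr cells a scrambled guide. Both kinds of cell also received the same donor vector, with GFP and puromycin resistance, were selected in puromycin and were expanded from single cells, so that each genotype is represented by 2 clones (KO11 and KO28, Scr13 and Scr16). Each clone was sequenced untreated and after 24 h in doxorubicin, a DNA-damaging drug, with 2 replicates, which gives 16 libraries and 4 per group. The sample labels give the dose as 0.3 µM, and the design text of the series gives 3 µM. The study's methods call the replicates of a clone biological, and the p-values measure the spread between libraries of these clones. The number of reads assigned to genes lay between 10481177 and 25086085 per library, and values are in normalized CPM, read counts that the authors scaled to a common library size.

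TRPM2 mRNA went against what its label would give if the whole transcript were lost. In normalized CPM, the untreated libraries labelled TRPM2 KO held 1.93 and 2.23 (KO11) and 1.41 and 2.19 (KO28), against 0.12 and 0.12 (Scr13) and 0.00 and 0.00 (Scr16) in the untreated Scr libraries. TRPM2 was thus higher in the libraries labelled TRPM2 KO, by 1.47 ± 0.27 on the scale of log2(CPM + 1) (± SE), which understates changes of low genes. No p-value is given, since TRPM2 reached the level needed for a test only through the libraries labelled TRPM2 KO. After doxorubicin, TRPM2 was at 1.22, 1.83, 1.37 and 0.66 in these libraries and at 0.06, 0.06, 1.33 and 0.39 in the Scr libraries. The study's methods describe a deletion at the start of the coding sequence that puts the remainder out of frame, which leaves later exons in place. Counts per gene do not show which exons the reads came from, so that the level of TRPM2 does not check the deletion. The genotype is given throughout as the label says it. CDKN1A, the p53 target that encodes p21, checked the drug: it was at 57.0 ± 15.2 in Scr libraries and 136 ± 16.5 in libraries labelled TRPM2 KO without treatment, and at 337 ± 25.1 and 736 ± 45.3 after doxorubicin (mean ± SD, n = 4). It was higher in the libraries labelled TRPM2 KO in both treatments, by 1.27 ± 0.14 and 1.13 ± 0.08 (log2 ± SE). Of 12 adrenergic neuroblastoma markers, all had reads, and their sum was between 7620 and 8941 normalized CPM in every library. TH, the rate-limiting enzyme of catecholamine synthesis and a defining marker of this cell type, was nearly absent, at a mean of 0.29, 0.28, 0.22 and 0.52 normalized CPM in untreated Scr, untreated TRPM2 KO, Scr with doxorubicin and TRPM2 KO with doxorubicin.

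The respiratory chain passes electrons from NADH (complex I) and succinate (complex II) through complexes III and IV to oxygen, and the protons pumped by complexes I, III and IV drive ATP synthase (complex V). Complex II is encoded wholly in the nucleus, whereas the other complexes combine nuclear subunits, imported as proteins, with a small core translated inside the mitochondrion from long transcripts of the mitochondrial chromosome. Levels of nuclear and mitochondrial mRNAs are therefore set by separate transcription systems, and their ratio is often described as mitonuclear balance.

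The mitochondrially encoded mRNAs were far more abundant per length than the nuclear ones. Mitochondrial mRNAs are counted throughout per annotated gene. Genes that share bases can lie on the same transcript, so this count need not be that of separate molecules. Over 16 libraries, the 13 mitochondrial mRNAs lay between 357 (MT-ND6) and 7145 (MT-CO2) normalized CPM per kb of annotated transcript, with a median level of 2496. The 81 nuclear genes had a median of 47.2 CPM per kb. Every mitochondrial mRNA stood above ATP5F1B, the catalytic beta subunit of ATP synthase, which at 286 CPM per kb was the highest of the nuclear genes. MT-ND6, the only one of the mRNAs on the light strand and known to carry little or no poly(A), was the lowest of the mitochondrial set in these poly(A)-selected libraries.

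Among nuclear subunits, the median level per kb was 91.5 in complex V (18 genes), 79.7 in complex IV (14), 40.8 in complex III (9), 38.8 in complex I (36) and 18.7 in complex II (4). Within complex I, the highest of the tested genes was NDUFS5, an accessory subunit, at 185 CPM per kb, and the lowest was NDUFA9 at 1.495. In complex II, SDHB, the iron-sulfur subunit, was at 28.2 and SDHA, the flavoprotein, at 27.8, while SDHD, a membrane anchor, was the lowest at 8.69. SDHC was the most abundant of this complex at 130 normalized CPM, but at 9.57 per kb of an annotated transcript of 13566 bases. The low median of complex II depends in part on this length. In complex III, UQCRH, the hinge subunit, was the highest at 235 and its intronless copy UQCRHL the lowest at 2.61; reads of these near-identical genes can be split between them. In complex IV, COX4I1 was at 218 and NDUFA4L2 at 0.85. In complex V, ATP5F1B stood against ATP5PO, a subunit of the peripheral stalk, at 8.18. Lengths are those of the shortest principal transcript in the annotation, which can exceed the transcripts these cells make.

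The widespread forms of the complex IV isoforms were by far the more abundant ones. COX4I1 was at 155 normalized CPM against 2.70 for COX4I2, the form known from lung and hypoxia, and COX6B1 was at 92.0 against 0.55 for COX6B2, the testis form. NDUFA4 was at 99.2 and its hypoxia-induced relative NDUFA4L2 at 1.00. COX6A1 was at 27.0, COX7A2 at 66.02, COX7B at 53.4 and COX8A at 27.3, and their heart, muscle or testis forms were not analysed here.

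Some nuclear subunits that every cell needs were close to 0. NDUFV2, a core iron-sulfur subunit of complex I (chr18:9102630-9134345), had between 2 and 24 reads per library, and NDUFA7 (chr19:8308768-8321396) between 0 and 21. In the annotation, 82.9% of the bases of the principal transcript of NDUFV2 and 75.9% of that of NDUFA7 are also exon of another gene on the same strand. Of the 81 nuclear subunits, 9 share at least 40% of their transcript in this way, and their median level was 3.39 CPM per kb, with a range of 0.53 to 87.8. The 66 genes that share none had a median of 60.1. ATP5MF shares 46.2% and was at 87.8 CPM per kb, whereas NDUFA3 (chr19:54102728-54109257) shares none and had between 0 and 14 reads per library. Whether reads in shared exons were dropped in counting was not tested, and levels of NDUFV2, NDUFA7, NDUFA11, NDUFA13, NDUFB8, UQCR11, COX6B2, ATP5PO and ATP5MF are uncertain for this reason.

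**Figure D1:**
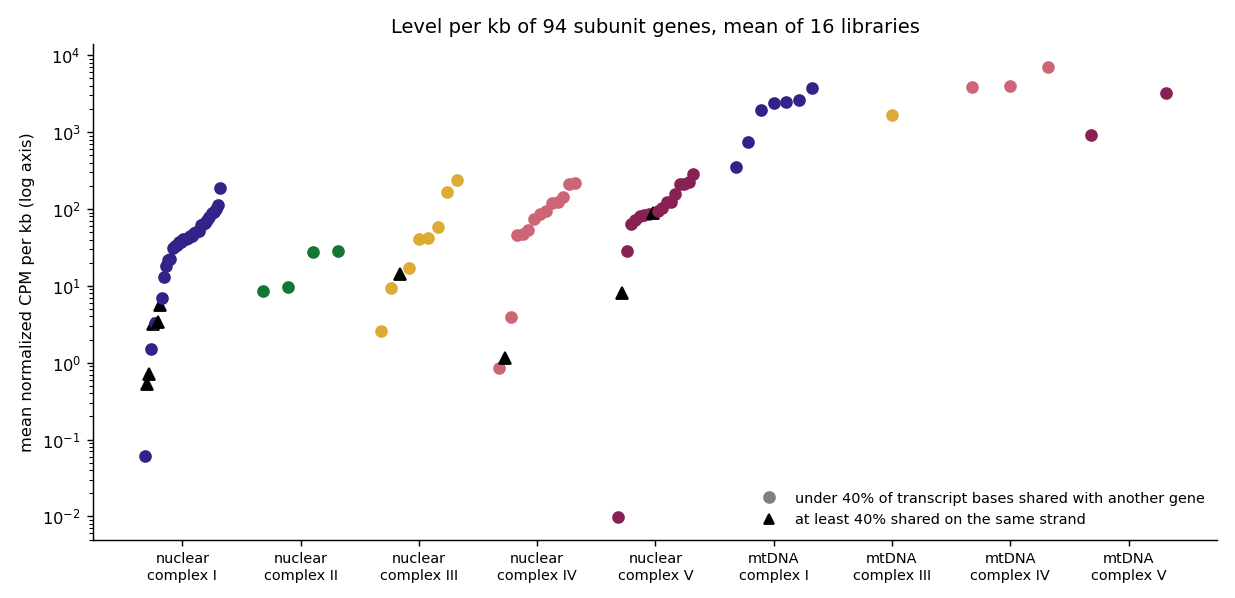
Mean level of the 94 subunit genes over 16 libraries, in normalized CPM per kb of annotated transcript on a log axis, by complex and by genome of origin. Triangles mark the 9 nuclear genes with at least 40% of their transcript shared with another gene, and all 13 mitochondrial mRNAs lie above the highest nuclear gene at 286.

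Neighbouring mitochondrial genes also share bases, and such genes need not give separate mRNAs. MT-ATP8 and MT-ATP6, both subunits of ATP synthase, overlap by 46 bases at chrM:8527-8572 on the plus strand, shown here because reads from this stretch belong to both (from GENCODE 29 transcripts, 5′ to 3′, with the start codon of MT-ATP6 in capitals).
MT-ATP8 and MT-ATP6: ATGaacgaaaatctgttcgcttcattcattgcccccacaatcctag
The stretch makes up 22.2% of MT-ATP8, the shorter of the pair. The genes MT-ND4L and MT-ND4 share 7 bases.

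Summed over the 13 mitochondrial mRNAs, levels in untreated Scr libraries were 29404 and 29968 (Scr13) and 23858 and 26283 (Scr16) normalized CPM. The untreated libraries labelled TRPM2 KO held 23205 and 27848 (KO11) and 39032 and 28774 (KO28). The groups overlapped, and the spread within a clone reached 1.36 times in KO28. After doxorubicin, the Scr libraries held 28827 and 33103 (Scr13) and 29850 and 28794 (Scr16). The libraries labelled TRPM2 KO then held 46211 and 29308 (KO11) and 40713 and 38866 (KO28). In this group, 3 of 4 libraries were above every Scr library with the drug, and the second KO11 replicate lay within the Scr range. The means were 27378 ± 2852 in untreated Scr, 29715 ± 6672 in untreated TRPM2 KO, 30143 ± 2033 in Scr with doxorubicin and 38774 ± 7040 in TRPM2 KO with doxorubicin (SD, n = 4). These mRNAs took between 2.37% and 4.50% of the reads of a library.

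The summed level of the nuclear subunits was between 5277 and 5338 normalized CPM in untreated Scr libraries and between 4679 and 5052 in Scr libraries with doxorubicin, with no overlap. In libraries labelled TRPM2 KO it was between 5269 and 5641 without treatment and between 4593 and 5321 after it, and these ranges overlapped. The summed levels of nuclear complex I and of nuclear complex V separated in both genotypes, that of complex V only narrowly in TRPM2 KO. Complex I went from 1547 ± 25.6 to 1387 ± 34.5 in Scr and from 1610 ± 46.6 to 1413 ± 87.7 in TRPM2 KO, and complex V from 2097 ± 37.2 to 1918 ± 85.5 in Scr and from 2137 ± 72.3 to 1907 ± 138 in TRPM2 KO. In TRPM2 KO the lowest untreated complex V sum was 2054 and the highest with doxorubicin 2044. A large part of these sums was ATP5F1B, at 533 to 589 without and 441 to 506 with doxorubicin in TRPM2 KO. The separation of complex V therefore weighs heavily on this gene, and is not shown for its other subunits. Complex IV separated in Scr and overlapped in TRPM2 KO. Complex III overlapped in both genotypes. Its range was 589.5 to 645 without and 578 to 626 with doxorubicin in Scr. In TRPM2 KO it was 592 to 680 without and 553 to 657 with the drug. Complex II subunits, at 243 ± 6.31, 241 ± 11.97, 239 ± 13.7 and 242 ± 13.2 in untreated Scr, untreated TRPM2 KO, Scr with doxorubicin and TRPM2 KO with doxorubicin, had overlapping ranges in all 4 groups. No test was run on these sums, since the members had been chosen with earlier results known. In a bulk sample, fewer cells of a type and less RNA per cell cannot be told apart.

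The ratio of the summed mitochondrial to the summed nuclear level was 4.52 to 5.67 in untreated Scr libraries and 5.70 to 7.07 in Scr libraries with doxorubicin. It was 4.33 to 6.93 in untreated libraries labelled TRPM2 KO and 9.85 and 5.51 (KO11) and 8.86 and 7.47 (KO28) after doxorubicin. The ratio was higher with the drug in both Scr clones without overlap, whereas in TRPM2 KO the second KO11 replicate again fell within the untreated range. By complex, the mean ratio with the drug went from 13.98 to 17.5 in Scr and from 15.8 to 24.3 in TRPM2 KO in complex IV, and from 8.00 to 9.43 and from 7.59 to 10.98 in complex I. It went from 2.99 to 3.26 and from 2.57 to 3.54 in complex III, and from 1.00 to 1.18 and from 1.13 to 1.47 in complex V. Taken by complex, the ranges with and without the drug overlapped in each of these complexes in both genotypes. Some replicates of a clone also differed in this direction, most of all in KO11 with doxorubicin, where the mitochondrial sum differed 1.58 times and the nuclear sum 1.13 times. In 7 of 8 replicate pairs the library with the higher mitochondrial sum had the lower nuclear sum. The nuclear sums of these pairs were mostly close, however. They differed 1.13 times in KO28 with doxorubicin as well, but only 1.00 to 1.05 times in the remaining pairs. The part of this replicate difference in the group differences was not tested.

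**Figure D2:**
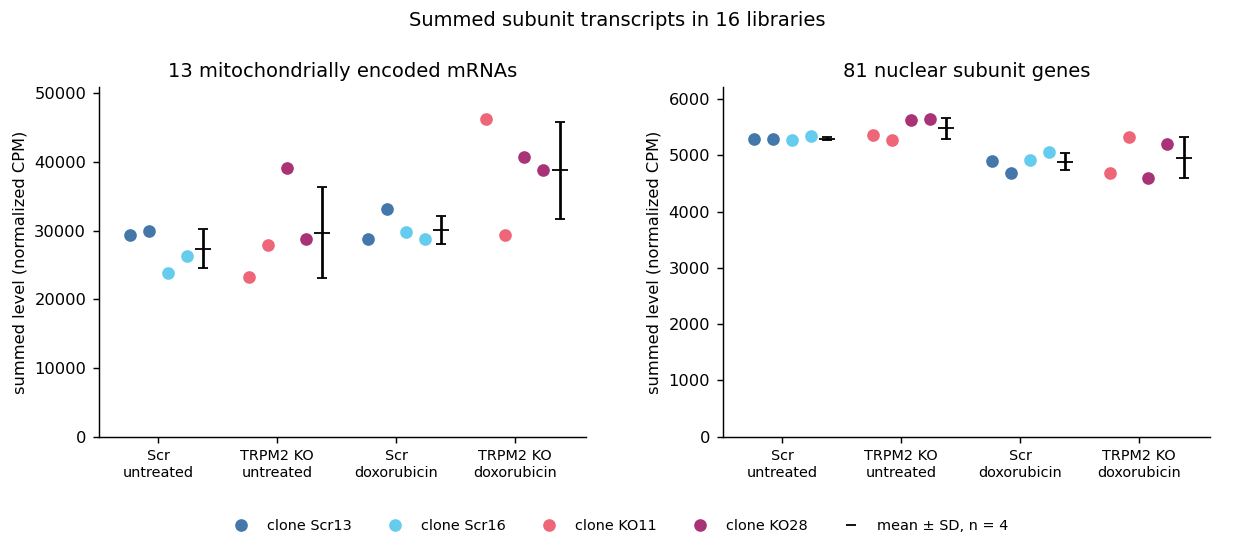
Summed level of the 13 mitochondrial mRNAs (left) and of the 81 nuclear subunit genes (right) in normalized CPM, 1 point per library, coloured by clone, with the mean ± SD of each group of 4. The mitochondrial sum reached 46211 in a KO11 library with doxorubicin, and the other replicate of that clone stood at 29308.

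Without treatment, no oxidative phosphorylation gene passed the test between the genotypes. With limma on log2(CPM + 1), 0 of 99 tested members passed an adjusted p of 0.05, against 4.84% of all 14364 genes tested (2.30% higher and 2.54% lower), and 12 of 99 had an unadjusted p under 0.05, against 14.3% of all genes. On recovered reads, edgeR called 0 members and DESeq2 called 2. The smallest adjusted p was that of MT-ND2, a core membrane subunit of complex I, at 0.067, with a log2 fold change of -0.35 ± 0.11. Its levels were 2615, 3488, 2810 and 2802 in Scr and 1795, 2506, 2602 and 2332 in TRPM2 KO libraries, so that no TRPM2 KO library reached the lowest Scr library. Nuclear genes of the core list lay close to 0, with log2 fold changes of -0.01 for NDUFS1, 0.06 for NDUFV1, 0.05 for SDHA, -0.02 for UQCRC1, 0.04 for COX4I1 and -0.05 for ATP5F1A. The mitochondrial genes of complex IV were at 0.17 for MT-CO1, 0.37 for MT-CO2 and 0.25 for MT-CO3, none past the test. The median log2 fold change was 0.05 for the 75 nuclear subunits tested and 0.17 for the 13 mitochondrial mRNAs, against -0.01 for all genes. Leaving out clone KO11 gave 5 calls and leaving out KO28 gave 3. Over all genes, 349 were higher and 447 lower of 13963 tested without KO11. Without KO28, 214 were higher and 322 lower of 13953.

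After doxorubicin, mitochondrially encoded subunits of cytochrome c oxidase were higher in the libraries labelled TRPM2 KO than in Scr. Of 99 members tested, 6 were higher and 1 lower, against 4.52% and 4.17% of all genes tested, so that the share of members called was close to the background. Of the 13 mitochondrial mRNAs, 4 were higher and 0 lower, and their median log2 fold change was 0.31 against 0.01 for all genes. All 3 mitochondrial genes of complex IV were among them. The 2 mitochondrial rRNAs were at 0.31 and 0.49 in the same comparison, without passing the test. The nuclear subunits had a median of 0.04, with 2 higher and 1 lower of 75.

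MT-ND5, a proton-pumping subunit of complex I (chrM:12337-14148), differed most. Its levels were 1065, 1226, 1321 and 1232 normalized CPM in Scr and 2156, 1371, 2103 and 1848 in TRPM2 KO libraries with doxorubicin. Every TRPM2 KO library stood above every Scr library, by 0.61 ± 0.12 (log2 ± SE, adjusted p = 0.0011). MT-CO1, the catalytic subunit of complex IV (chrM:5904-7445), was at 5502, 6086, 5674.5 and 5556.5 in Scr and at 9232, 6046, 9036 and 7792 in TRPM2 KO (0.47 ± 0.14, adjusted p = 0.029). MT-CO2, which takes electrons from cytochrome c (chrM:7586-8269), was at 4137, 4208, 5218 and 4061 in Scr and at 8530.0, 4564, 7107 and 5959 in TRPM2 KO (0.54 ± 0.15, adjusted p = 0.027). MT-CO3 (chrM:9207-9990) was higher by 0.50 ± 0.12 (adjusted p = 0.010), with 2333 to 3194.5 in Scr and 3120 to 4405 in TRPM2 KO. For each of the complex IV genes, the second KO11 library reached into the Scr range and the other 3 libraries did not.

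The remaining mitochondrial mRNAs did not pass the test. MT-ND6 (0.57 ± 0.18, adjusted p = 0.054), MT-ND4 (0.33 ± 0.13) and MT-ATP6 (0.31 ± 0.12) leaned upwards, while MT-ND1, MT-ND2 and MT-ND3 had log2 fold changes of 0.01, 0.04 and -0.00. The 3 complex IV mRNAs thus took a larger part of the mitochondrial sum, a quantity chosen after the values were seen: 37.8% to 42.5% in untreated Scr libraries and 44.2% to 46.5% in untreated TRPM2 KO libraries, and 40.7% to 45.2% and 46.7% to 49.1% after doxorubicin, with no overlap between genotypes in either treatment.

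**Figure D3:**
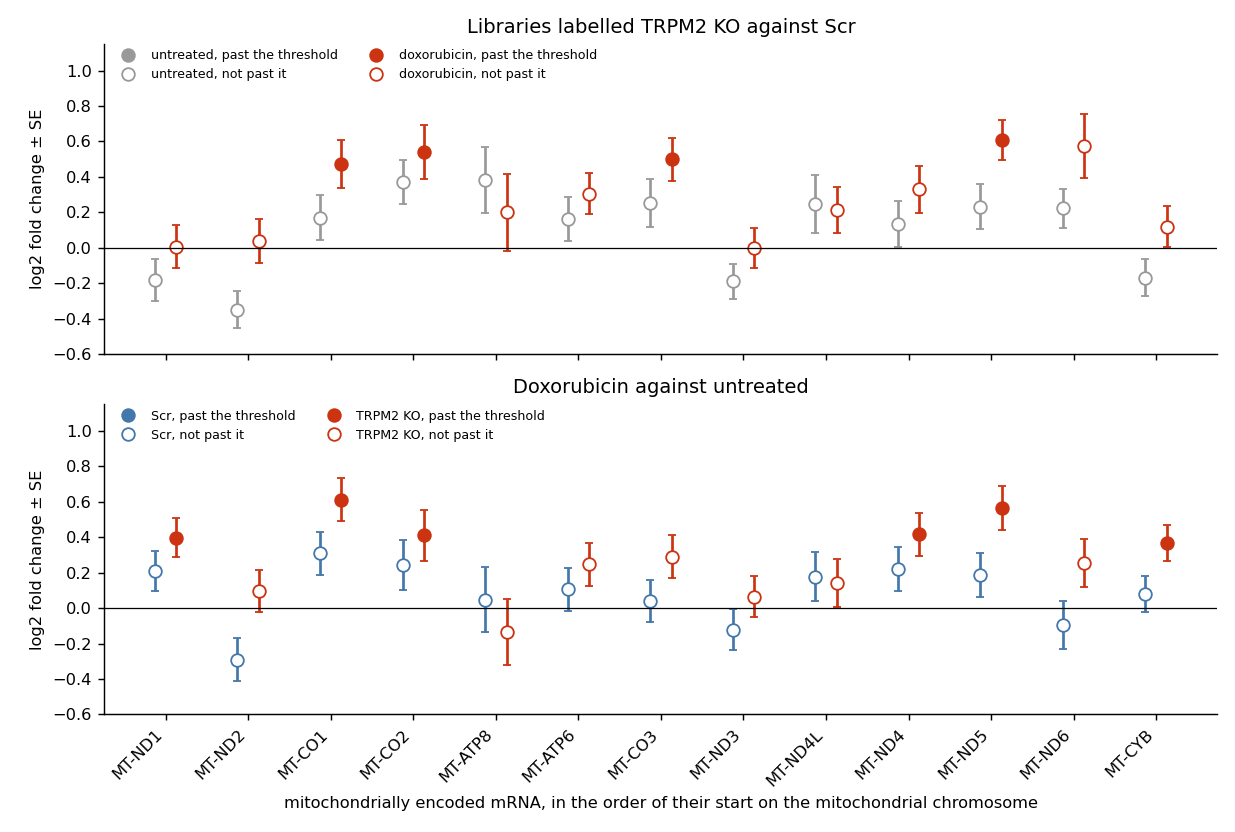
Log2 fold change ± SE of the 13 mitochondrially encoded mRNAs, in the order of their start on the mitochondrial chromosome, between genotypes (top) and with doxorubicin (bottom). Filled points passed an adjusted p of 0.05; MT-CO1, MT-CO2, MT-CO3 and MT-ND5 did so between genotypes after doxorubicin, and 6 mRNAs did with doxorubicin in libraries labelled TRPM2 KO.

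Nuclear genes that differed between genotypes after doxorubicin were few. NDUFB2, an accessory subunit of the complex I membrane arm (chr7:140690777-140722790), was at 36.6, 32.3, 31.0 and 32.7 normalized CPM in Scr and at 41.3, 49.3, 37.1 and 48.3 in TRPM2 KO (0.39 ± 0.11, adjusted p = 0.034). NDUFS5 (chr1:39026318-39034636) was at 70.8, 78.6, 80.0 and 94.1 in Scr and at 91.9, 106, 94.7 and 107.5 in TRPM2 KO (0.31 ± 0.09, adjusted p = 0.040). NDUFB2 separated the genotypes narrowly, and NDUFS5 overlapped through 1 Scr16 library. ATP5F1D, the delta subunit of the ATP synthase rotor (chr19:1241746-1244826), was the gene that was lower, with 70.8, 81.2, 93.6 and 99.6 in Scr and 70.8, 63.0, 66.3 and 70.5 in TRPM2 KO (-0.34 ± 0.10, adjusted p = 0.037).

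The calls between genotypes rested on few libraries. The 6 higher calls became 0 without clone KO28, 4 without KO11 and 0 when genes of low level were kept in the test. Over all genes, higher calls also fell, from 659 to 260 without KO11 and to a similar number without KO28. With genes of low level kept in the test, 464 genes were higher. Among the members, leaving out the first KO11, the second KO28, the second Scr13 or the second Scr16 library with doxorubicin gave 3 higher calls. The 8 libraries were treated as independent although each clone gave 2 of them. With 1 mean per clone, MT-ND5, MT-CO1, MT-CO2 and MT-CO3 kept their calls and NDUFB2, NDUFS5 and ATP5F1D did not. Scaled by library size alone, 5 were higher and 2 lower. Of 24 alternatives, MT-ND5 kept its call under 22, MT-CO3 under 21, MT-CO1 and MT-CO2 under 13 each, NDUFB2 and ATP5F1D under 12 each and NDUFS5 under 10.

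Mesenchymal markers moved with the genotype label. Of 10 such markers, 9 had a row, none was at 0 reads and VIM, which encodes vimentin, was the most abundant, at a mean of 275 normalized CPM. Without treatment 5 of 9 were higher and 1 lower (TWIST1) in the libraries labelled TRPM2 KO, and after doxorubicin 6 of 8 were higher and 1 lower. Of all genes tested, 2.30% were higher and 2.54% lower without treatment, and 4.52% and 4.17% after doxorubicin. Their summed level was 894, 427, 547 and 588 in untreated Scr, 962, 843, 1141 and 1042 in untreated TRPM2 KO, 537, 447, 739.6 and 615 in Scr with doxorubicin, and 1119, 873, 1208 and 1009.9 in TRPM2 KO with doxorubicin. The TRPM2 KO sums were above the Scr sums in both treatments, apart from 1 untreated Scr13 library. Leukocyte markers (2 of 5 with a row, CD14 the most abundant) summed to at most 1.67 and epithelial markers (4 of 4, KRT18 the most abundant) to at most 3.15 normalized CPM in any library, and neither passed the level needed for a test between genotypes. Of 11 tested adrenergic markers, 2 were higher and 1 lower in the libraries labelled TRPM2 KO without treatment, and 1 was higher and 1 lower after doxorubicin, against the same shares of all genes. The part of these markers in the differences above was not tested.

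**Figure D4:**
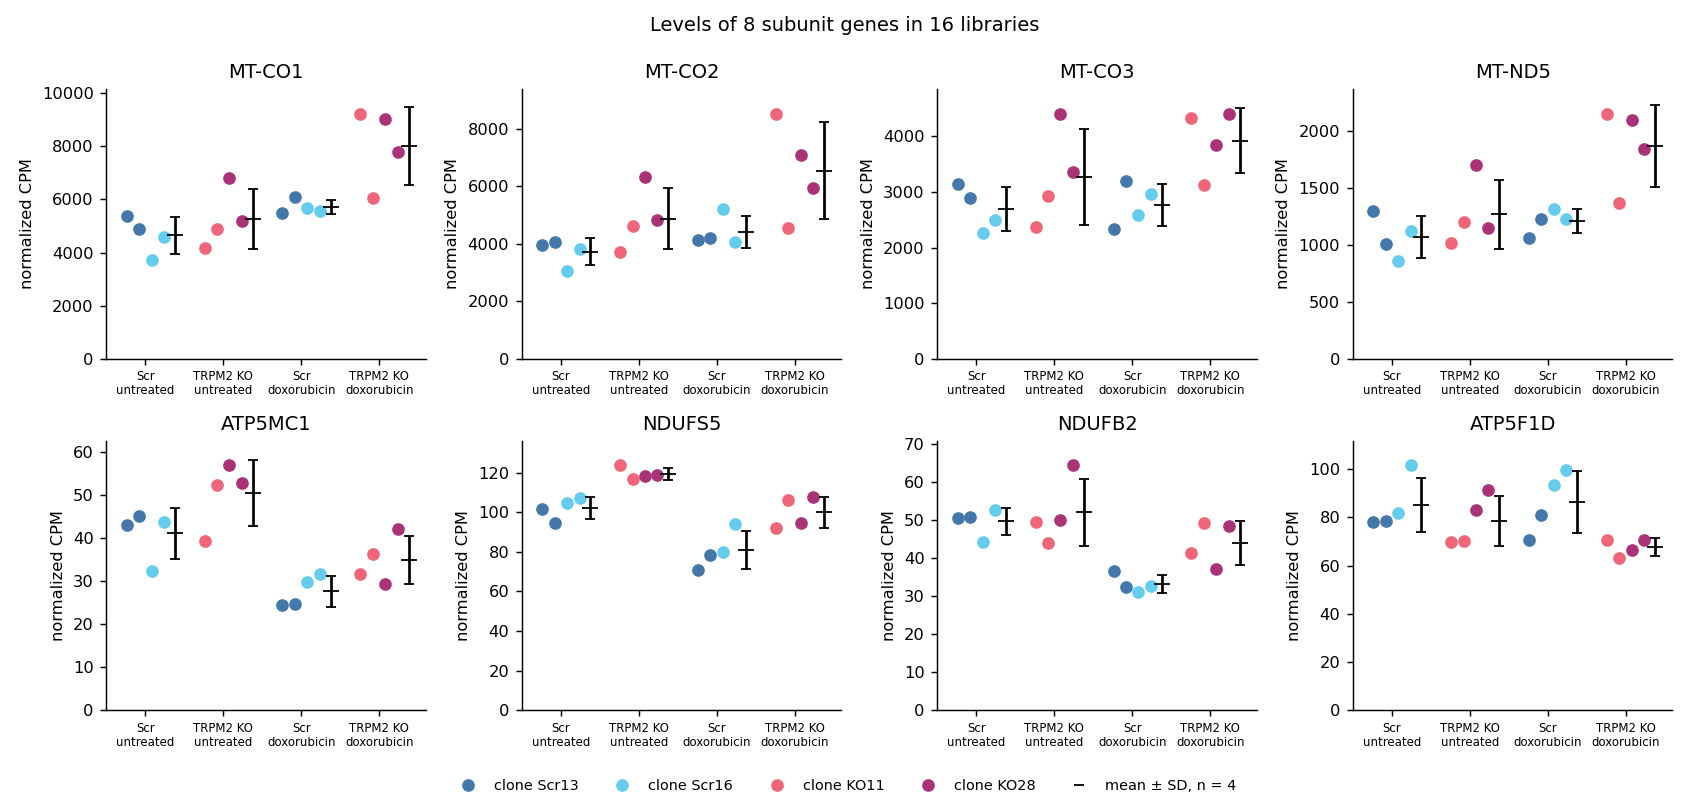
Normalized CPM of 8 subunit genes in each of 16 libraries, coloured by clone, with the mean ± SD of each group of 4. MT-ND5 in TRPM2 KO libraries with doxorubicin (1371 to 2156) lies above all Scr libraries with doxorubicin, and NDUFB2 in Scr libraries with doxorubicin (31.0 to 36.6) lies below all other groups.

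With doxorubicin, some nuclear subunit mRNAs, most of them of complex I, fell in both genotypes. In Scr libraries, 11 of 100 members fell and 1 rose, against 5.53% and 7.09% of all 15325 genes tested. In libraries labelled TRPM2 KO, 13 fell and 8 rose, against 7.60% and 10.2%. The nuclear subunits had a median log2 fold change of -0.13 in Scr and -0.19 in TRPM2 KO, against -0.01 and 0.02 for all genes. Of 76 nuclear subunits tested, 54 had a value under 0 in both genotypes and 9 had a value above 0 in both.

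Adrenergic markers moved with the drug as well, although their sum, in which STMN2 is the most abundant at 1629 normalized CPM, stayed within the range given above. In Scr, 2 of 11 rose (HAND2 and STMN2) and 2 fell (DDC and ISL1), and in TRPM2 KO 1 rose (HAND2) and 4 fell (CHGA, DBH, DDC and ISL1, between -1.36 and -0.36). The difference of the drug effect was below 0 for 10 of the 11 and past the test for 0. Of 9 mesenchymal markers, 1 rose in Scr, and 1 rose and 1 fell in TRPM2 KO. Of all genes tested, 7.09% rose and 5.53% fell in Scr, and 10.2% rose and 7.60% fell in TRPM2 KO. The part of either list in the changes of the subunits was not tested.

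By complex, the falls in Scr were 7 of 33 tested nuclear genes in complex I, 0 of 4 in complex II, 0 of 9 in complex III, 1 of 13 in complex IV and 2 of 17 in complex V. In TRPM2 KO they were 10, 0, 1, 0 and 2 of the same numbers. Over all genes tested, the shares that fell were 5.53% in Scr and 7.60% in TRPM2 KO. No nuclear structural subunit rose in either genotype. The numbers of genes in complexes II and III are small, and a difference between complexes was not tested.

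In Scr libraries, the largest falls were those of NDUFAF4, an assembly factor of complex I (-0.76 ± 0.22, adjusted p = 0.020), NDUFS6, a zinc-binding subunit at its peripheral arm (-0.62 ± 0.15, adjusted p = 0.0047), NDUFB2 (-0.57 ± 0.11, adjusted p = 0.00081), ATP5MC1 (-0.55 ± 0.13, adjusted p = 0.0041) and NDUFB6 (-0.51 ± 0.13, adjusted p = 0.0099). NDUFB2 went from 50.5, 50.8, 44.3 and 52.7 normalized CPM in untreated Scr libraries to the levels given above, all below the untreated range, and it alone of the 40 calls kept its call under every alternative. Of 31 alternatives, the calls of ATP5MC1 and NDUFAF3 held under 30, that of NDUFS6 under 29, that of NDUFB6 under 28, that of NDUFS1 under 26 and that of NDUFAF4 under 25. Among the core subunits, NDUFS1, which carries iron-sulfur clusters, fell by 0.25 ± 0.07 (log2, adjusted p = 0.021). The 1 member that rose was NDUFAF3, an early assembly factor of complex I, from 38.8, 40.1, 38.9 and 40.2 to 55.6, 51.5, 52.6 and 64.2 (0.49 ± 0.10, adjusted p = 0.0011). Leaving out clone Scr13 left 2 falls, and leaving out Scr16 left 4.

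In libraries labelled TRPM2 KO, the largest falls were those of ATP5MC1 (-0.52 ± 0.13, adjusted p = 0.0049), UQCRQ, a small subunit of complex III (-0.51 ± 0.10, adjusted p = 0.00063), NDUFA12 (-0.48 ± 0.12, adjusted p = 0.0032), NDUFA1 (-0.37 ± 0.13, adjusted p = 0.048) and NDUFB9 (-0.33 ± 0.09, adjusted p = 0.010). UQCRQ went from 80.7, 70.7, 102 and 91.5 normalized CPM to 53.4, 68.7, 52.3 and 66.4, with no overlap. ATP5F1B, the most abundant nuclear subunit mRNA, fell by 0.25 ± 0.07 (log2, adjusted p = 0.0077). The core subunits UQCRC1 and COX4I1 did not pass the test in either genotype, with log2 fold changes of -0.13 and -0.19 for UQCRC1 and of -0.11 and -0.10 for COX4I1 in Scr and TRPM2 KO.

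The rises in TRPM2 KO were mostly mitochondrial: 6 of the 13 mitochondrial mRNAs rose, together with NDUFAF8, an assembly factor (0.53 ± 0.18), and COX7A2L (0.25 ± 0.08). Of all genes tested, 10.2% rose. MT-CO1 rose by 0.61 ± 0.12 (log2, adjusted p = 0.00052), from 4155, 4882, 6823 and 5197 normalized CPM to the levels given above. MT-ND5 rose by 0.56 ± 0.12 (adjusted p = 0.0015), MT-ND4 by 0.42 ± 0.12, MT-CO2 by 0.41 ± 0.14, MT-ND1 by 0.40 ± 0.11 and MT-CYB, the subunit of complex III, by 0.37 ± 0.10. In Scr libraries 0 of the 13 passed the test, with log2 fold changes of 0.31 ± 0.12 for MT-CO1, 0.19 ± 0.12 for MT-ND5 and 0.21 ± 0.11 for MT-ND1. The median of the 13 was 0.11 in Scr and 0.29 in TRPM2 KO. The 2 mitochondrial rRNAs rose by 0.64 and 0.65 in TRPM2 KO and stood at 0.38 and 0.40 in Scr without passing the test. Of 31 alternatives, the calls in TRPM2 KO held under 30 for MT-CO1 and MT-ND5, 26 for MT-CYB, 24 for MT-ND1, MT-ND4 and COX7A2L, 19 for NDUFAF8, 18 for MT-CO2 and, among the falls named, 30 for ATP5MC1, UQCRQ and NDUFA12, 29 for ATP5F1B, 26 for NDUFB9 and 15 for NDUFA1. All 8 rises in TRPM2 KO were lost without clone KO11, and 7 members rose without KO28. The 13 falls became 5 without KO11 and 0 without KO28. Over all genes, rises went from 1563 to 577 without KO11 and 850 without KO28, and falls from 1164 to 357 and 563. Scaled by library size alone, 5 members rose and 17 fell, while over all genes 1346 rose and 1432 fell.

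**Figure D5:**
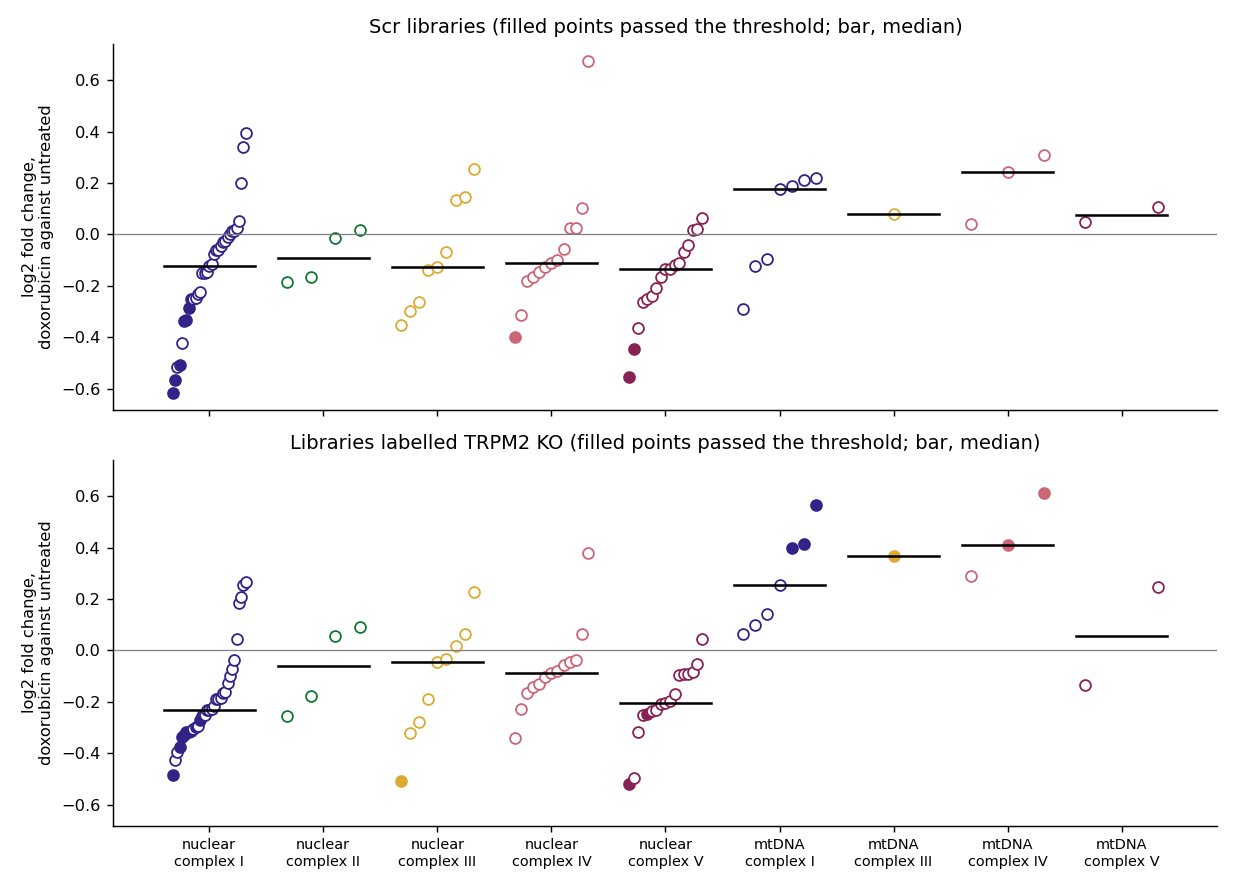
Log2 fold change of each tested subunit gene with doxorubicin in Scr libraries (top) and in libraries labelled TRPM2 KO (bottom), by complex and genome of origin, with a bar at the median. Filled points passed an adjusted p of 0.05; nuclear medians lie between -0.14 and -0.09 in Scr, and the filled points above 0 are 6 mitochondrial mRNAs in TRPM2 KO.

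The effect of doxorubicin was not shown to differ between the genotypes for any member. The test of the difference in the same limma model called 0 of 100 members, with a smallest adjusted p of 0.33, and 0.0261% of all genes (0.0131% in each direction), while 8 members had an unadjusted p under 0.05, against 8.31% of all genes. On recovered reads, edgeR and DESeq2 also called 0 members. For MT-CO1 the drug effect in TRPM2 KO minus that in Scr was 0.30 ± 0.17 (log2), for MT-ND5 0.38 ± 0.18 and for MT-ND2 0.39 ± 0.17. The 13 mitochondrial mRNAs had a median difference of 0.20, with 11 above 0. Their levels varied together over the 16 libraries (median pairwise correlation 0.58, from -0.06 to 0.97), so that these are not 13 separate observations. For NDUFB2 the difference was 0.34 (adjusted p = 0.59), although it passed the test in Scr alone.

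The falls that passed in both genotypes were those of ATP5MC1, NDUFB4, NDUFB10 and NDUFS5, 4 genes that make up 36.4% of the falls in Scr and 30.8% of those in TRPM2 KO. Over all genes, 501 fell in both, which is 59.1% of the falls in Scr and 43.0% of those in TRPM2 KO, so that the overlap among the members was not above that of all genes. NDUFB4, NDUFB10 and NDUFS5 were singled out after their values were seen. ATP5MC1 encodes the c subunit of the ATP synthase rotor, and went from 43.0, 45.3, 32.5 and 43.8 normalized CPM to 24.4, 24.7, 29.8 and 31.7 in Scr, and from 39.5, 52.5, 57.0 and 52.96 to 31.7, 36.3, 29.4 and 42.2 in TRPM2 KO. The ranges were apart in Scr and met in TRPM2 KO through 1 library of each kind. Its sister genes ATP5MC2 and ATP5MC3, which encode the same mature protein, were more abundant and had log2 fold changes of 0.06 and -0.12 in Scr and -0.09 and -0.17 in TRPM2 KO, none past the test. NDUFB4, in the membrane arm of complex I, went from 76.6, 75.2, 64.4 and 70.7 to 63.7, 59.7, 53.5 and 57.6 in Scr and from 64.7, 63.85, 59.8 and 65.6 to 53.6, 57.4, 44.1 and 48.7 in TRPM2 KO. For NDUFB4, as for NDUFS5, no library with doxorubicin reached the untreated range of its genotype. NDUFB10, also in the membrane arm, went from 60.6, 62.2, 62.7 and 69.1 to 46.1, 55.9, 43.6 and 56.6 in Scr and from 53.4, 54.3, 64.98 and 65.3 to 44.3, 48.7, 45.5 and 53.9 in TRPM2 KO. Its ranges were apart in Scr and overlapped in TRPM2 KO.

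The 250 bases before the RefSeq start (GRCh38.p14) of the genes that fell in both genotypes were searched on both strands. The search does not rest on an excess of shared falls, which the members did not show. It covered the NRF1 motif, CCGGAAG (ETS factors such as GABP, regulators of respiratory genes) and CCAAT, and matches are in capitals. NDUFS5 is not in the table of promoters. The windows are ATP5MC1 at chr17:48892537-48892786, NDUFB4 at chr3:120596086-120596335 and NDUFB10 at chr16:1959288-1959537, all on the plus strand.
ATP5MC1: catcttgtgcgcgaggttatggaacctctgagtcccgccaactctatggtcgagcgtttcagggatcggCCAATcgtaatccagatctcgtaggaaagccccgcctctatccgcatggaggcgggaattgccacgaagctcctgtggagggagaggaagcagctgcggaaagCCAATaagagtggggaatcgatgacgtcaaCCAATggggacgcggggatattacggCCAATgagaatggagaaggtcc
NDUFB4: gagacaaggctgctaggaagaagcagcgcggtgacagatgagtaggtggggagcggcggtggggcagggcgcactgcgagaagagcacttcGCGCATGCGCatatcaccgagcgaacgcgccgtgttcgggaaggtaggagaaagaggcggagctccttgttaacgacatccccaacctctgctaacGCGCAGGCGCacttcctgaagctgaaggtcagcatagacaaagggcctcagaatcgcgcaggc
NDUFB10: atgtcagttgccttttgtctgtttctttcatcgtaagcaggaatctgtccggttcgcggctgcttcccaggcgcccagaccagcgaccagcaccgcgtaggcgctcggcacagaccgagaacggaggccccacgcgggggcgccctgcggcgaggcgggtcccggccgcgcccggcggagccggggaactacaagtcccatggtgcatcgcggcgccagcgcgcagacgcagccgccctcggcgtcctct
The capitals are CCAAT in ATP5MC1, at 4 places, and the NRF1 motif or its reverse complement in NDUFB4, at 2 places. In NDUFB10 none of the motifs was matched. A promoter was found for 64 of the 81 nuclear subunits, and the NRF1 motif was matched in 14 of them (21.9%), against 7.65% of 15843 protein-coding promoters of the same length. The ETS motif was matched in 17 (26.6%) against 11.8%, and CCAAT in 19 (29.7%) against 34.5%. Of the 16 nuclear subunits with a promoter that fell in at least 1 genotype, 2 matched NRF1, 7 ETS and 4 CCAAT. These are matches of letters, not sites of binding, and base composition was not matched between the sets.

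Other mitochondrial genes also held calls with doxorubicin. Of all genes, 5.53% fell in Scr and 7.60% in TRPM2 KO. Of 41 tested assembly factors and electron carriers outside the prefix rule, 2 fell with doxorubicin in Scr, CYCS, which encodes cytochrome c (-0.38 ± 0.09), and UQCC2, an assembly factor of complex III (-0.38 ± 0.13). In TRPM2 KO 1 rose, HIGD1A, a hypoxia-induced protein of the inner membrane (0.51 ± 0.09), which was also higher than in Scr after doxorubicin (0.39 ± 0.10). Of 30 genes of mitochondrial DNA maintenance and RNA handling, 3 fell in Scr: SSBP1, the single-strand DNA-binding protein (-0.72 ± 0.23, from 12.3 and 10.5 to 9.21 and 8.90 normalized CPM in Scr13 and from 21.8 and 30.0 to 11.3 and 10.8 in Scr16), and HSD17B10 (-0.32 ± 0.10) and TRMT10C (-0.37 ± 0.11), which are both subunits of mitochondrial RNase P. None of the 30 passed the test with doxorubicin in TRPM2 KO, and TFB1M, an rRNA methyltransferase, was lower than in Scr without treatment (-0.54 ± 0.15).

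Of 9 tested nuclear regulators of respiratory genes, 3 fell with doxorubicin in TRPM2 KO, against 7.60% of all genes, and 0 fell in Scr. These were NRF1 (-0.47 ± 0.12, adjusted p = 0.0053), the coactivator PPRC1 (-0.31 ± 0.08) and GABPB1, a subunit of GABP (-0.30 ± 0.09). In Scr the same genes were at -0.27 ± 0.12, -0.14 ± 0.08 and -0.12 ± 0.09, and the differences between genotypes did not pass the test (adjusted p = 0.82, 0.76 and 0.79). After doxorubicin, ESRRG was higher (0.35) and GABPB2 lower (-0.61) in TRPM2 KO than in Scr. Of 17 genes of the TCA cycle and pyruvate dehydrogenase, PDHB (-0.38 ± 0.11) and IDH3B (-0.28 ± 0.09) fell in Scr, and IDH3B fell in TRPM2 KO (-0.44 ± 0.09). Mitochondrial ribosomal protein genes had medians of -0.18 and -0.12 with doxorubicin in Scr and TRPM2 KO, with 7 of 75 tested falling in each, against 5.53% and 7.60% of all genes, and with 1 rising in Scr and 2 in TRPM2 KO.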

How the data were processed

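Poly(A) RNA libraries from a directional kit were sequenced. Per the labels, the authors used bcl2fastq, HISAT2 2.1.0, HTSeq and edgeR on GRCh38; the use of strand and the treatment of shared exons in counting are not given in the sources used here. The deposited signal is normalized CPM, read counts divided by the effective library size of the authors, and 100% of values were whole reads within 0.01. On these reads, edgeR called 578 genes higher and 615 lower between genotypes with doxorubicin, and limma 659 and 607. The fold changes, p-values and q-values deposited beside it hold the authors' own comparison and were not used. The factors came within 0.965% of TMM factors over all 16 libraries, so both tables were treated as 1 scale.

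Genes with at least 1 CPM in at least 4 libraries of a fit were tested with limma 3.58.1 (R 4.3.3; trend, two-sided) on log2(CPM + 1), Benjamini-Hochberg adjusted over all genes tested, threshold 0.05; fold changes are on this scale, which understates changes of low genes. Genotypes were compared over 8 libraries per treatment; drug effects and their difference over 16 libraries with clone terms. Alternatives used edgeR 4.0.16, DESeq2 1.42.0 and others given below. The fits were tested on simulated data. Members, lists and markers were chosen with earlier results of these data known. Named genes are the mitochondrial mRNAs, all called members (the 5 largest where over 10 passed in 1 direction), core subunits, isoform pairs, the extremes per complex and called list genes; NDUFB4, NDUFB10, NDUFS5, NDUFV2, NDUFA7, NDUFA3, ATP5MC2 and ATP5MC3 were added after their values were seen. A value of 0 allows up to 3 reads, for counting error only.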

Additional observations from a re-analysis of the deposited data

Results flagged for a closer look

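Of 228 groups of 4 libraries examined, 11 held a library whose gap to its nearest neighbour was above the 95% critical value of Dixon's ratio for 4 values, and chance flags about 1 in 20 groups. Among the mitochondrial mRNAs, MT-ND4L stood at 923.8 normalized CPM in the first untreated KO28 library, against 453.8 to 531.1 in the other untreated TRPM2 KO libraries, and MT-CO2 at 5218 in the first Scr16 library with doxorubicin, against 4061 to 4208. The summed nuclear level was 5338 in the second untreated Scr16 library, against 5277 to 5285 in the other untreated Scr libraries. In the same library ATP5F1D was at 101.7 against 78.1 to 82.0.

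In complex IV, COX5A was at 75.91 in the first Scr13 library with doxorubicin, against 66.63 to 67.77, and at 59.51 in the first KO11 library with doxorubicin, against 71.48 to 72.70, which is also the library with the highest mitochondrial sum. COX5B was at 84.14 in the first untreated Scr16 library, against 71.80 to 73.41. COX7A2L, the supercomplex factor, was at 129.7 in the second KO28 library with doxorubicin, against 137.1 to 137.6. UQCRQ of complex III was at 67.70 in the first untreated Scr13 library, against 78.88 to 80.99. ATP5F1A, the alpha subunit of ATP synthase, was at 425.0 in the second untreated KO28 library, against 416.4 to 417.5. NDUFAF4, the assembly factor, was at 9.045 in the same library, against 17.91 to 18.64.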

How the results depend on the processing

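None of the 40 gene calls changed sign under any alternative. The ratios of summed levels were recomputed only with library size alone and with the mitochondrial chromosome left out of the scaling. They stayed within the spread between the libraries of the groups, which includes differences between clones. Counts of calls moved more. With doxorubicin, members higher in TRPM2 KO than in Scr (6) were 0 with no filter, 0 without clone KO28 and 2 at a threshold of 0.01 (chosen after seeing the data, as was TMM over 16 libraries), and 3 to 7 with 1 library left out. The 1 member lower became 2 with library size alone, edgeR, DESeq2 or clone as a random block, and 0 with no filter, clone means, a threshold of 0.01 or without Scr16, KO11 or KO28, and 0 to 1 with 1 library left out. Without treatment (0), there was 1 call with library size alone or without Scr13, 2 with DESeq2, 5 without KO11, 3 without KO28 and 0 to 2 with 1 library left out.

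In Scr, rises with doxorubicin (1) were 2 without Scr13, 0 without Scr16 and 1 to 2 with 1 library left out, and falls (11) were 2 without Scr13, 4 without Scr16, 7 at a threshold of 0.01 and 8 to 13. In TRPM2 KO, rises (8) were 3 with no filter, 5 with library size alone or DESeq2, 0 without KO11, 3 at a threshold of 0.01 and 3 to 10 with 1 library left out, lowest without the first untreated KO11, the second untreated KO28 or the first KO11 library with doxorubicin. Falls (13) were 8 with no filter, 5 without KO11, 0 without KO28, 5 at a threshold of 0.01 and 5 to 15, lowest without the first KO28 library with doxorubicin. The test of the difference called 0 in every alternative. Over all genes, leaving out a clone removed calls in some comparisons: those lower between genotypes with doxorubicin went from 607 to 250 without KO11 and 312 without KO28. Falls in Scr went from 848 to 178 without Scr13 and 353 without Scr16. Falls in TRPM2 KO went from 1164 to 357 without KO11 and 563 without KO28. In other comparisons it added calls. Between untreated genotypes, 330 higher and 365 lower became 349 and 447 without KO11. Calls higher between genotypes with doxorubicin went from 659 to 709 without Scr13, and rises in TRPM2 KO from 1563 to 1696 without Scr16. Without treatment, 330 genes were higher and 365 lower, against 159 and 209 with no filter and 210 and 237 at a mean of at least 10 CPM. The test of the difference called 2 genes higher and 2 lower, against 6 and 4 with edgeR, 20 and 38 with DESeq2 and 14 and 11 with the replicate block. The cause of these moves was not tested. With no filter more genes were adjusted for, and with libraries left out fewer were fitted. Replicate numbers did not pair the samples (correlations of -0.10 to 0.12). With the replicate block, 1 member was called without treatment and 2 rose with doxorubicin in Scr. In other comparisons the replicate block gave 7 higher and 1 lower between genotypes with doxorubicin, 13 falls in Scr, and 8 rises and 15 falls in TRPM2 KO.

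Each genotype is represented by 2 clones; with 1 mean per clone, 6 members were higher with doxorubicin, and 4 of the 7 calls between genotypes were kept. Genes with few reads, such as NDUFV2, were outside the test at this depth.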
